A study of Mus musculus with 5 samples.

Results

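The 9 genes described here encode ligands and receptors of platelet-derived growth factor (PDGF) signalling and proteins of mural cells, the pericytes and smooth muscle cells that wrap blood vessels. They were chosen by symbol (Pdgfa, Pdgfb, Pdgfc, Pdgfra, Pdgfrb, Cspg4, Rgs5, Mcam and Angpt1) and are 9 of the 23441 rows of the deposited count table. All 9 passed the filter on low counts and are among the 12710 genes tested. Poly(A) RNA of the mouse mandible at embryonic day 10.5 was sequenced in 3 control and 2 dCKO libraries. Control embryos carried floxed alleles of both genes (Yapf/f, Tazf/f) on the 129SvEv background, with no Cre named. The dCKO embryos (double conditional knockout) carried the same alleles with Wnt1Cre and were of the C57BL/6J x CBA/J; 129SvEv background, so that strain background and genotype cannot be told apart. Yap1 and Wwtr1 (Taz) encode transcriptional coactivators that act through TEAD factors. Wnt1Cre is active in the early neural crest, so endothelium, epithelium, arch mesoderm and blood of the same tissue are not expected to recombine the alleles. Nothing in the labels says whether a library came from 1 embryo or a pool, and p-values therefore measure no more than how far these libraries differ, which may in part be technical.

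PDGF ligands are secreted dimers that bind a pair of receptor tyrosine kinases. PDGF-A and PDGF-C, made largely by epithelia, signal through PDGFRα on neural crest mesenchyme, and this arm is known for its role in forming the face. PDGF-B, made by endothelial cells and also carried by platelets, signals through PDGFRβ and recruits pericytes to growing vessels. Angiopoietin 1, the product of Angpt1, comes from perivascular cells and acts on the endothelial receptor TIE2.

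The data give a level for each gene in a whole dissected tissue, in which fewer cells of a type and less RNA per cell cannot be told apart. Levels are in CPM (library counts scaled to a common total), adjusted for library composition with the TMM method. Library totals ran from 6491137 to 7439419 counts in the controls and were 11346480 and 13298973 in the dCKO libraries. The targeted genes were lower in both dCKO libraries than in any control, with log2 fold changes of −1.33 for Yap1 and −1.31 for Wwtr1 (adjusted p by edgeR 1.31e-05 and 1.56e-04). Arch mesenchyme markers were present as the labelled tissue implies, all 13 of the list passing the low-count filter. The globins Hba-x, Hbb-bh1 and Hbb-y took 0.335% to 0.441% of control counts and 5.30% and 7.43% of dCKO counts. Transcripts of 4 Y-linked genes summed to 119 to 151 CPM in control replicates 1 and 2 and dCKO replicate 1, against 1.07 CPM in control replicate 3 and 0.688 CPM in dCKO replicate 2. Control replicate 3 also stood apart from the other controls in Rgs5, where it was at least 4-fold lower than both, and less widely in Pdgfc (lower) and Pdgfrb (higher), given below.

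RefSeq promoter windows (build GRCm38.p6, 250 bases before to 50 bases after a start site) were used for 6 of the 9 genes, in 7 windows. They are shown for the ligand that rose, Pdgfa, which has 2 start sites, for Pdgfc, the ligand that did not pass the test, and for the receptor Pdgfra. The capitals mark GGAATG or its reverse complement CATTCC, the core letters of the motif that TEAD factors, the DNA-binding partners of YAP and TAZ, are known to bind.
Pdgfa, upstream start site, chr5:138994895-138995194, minus strand: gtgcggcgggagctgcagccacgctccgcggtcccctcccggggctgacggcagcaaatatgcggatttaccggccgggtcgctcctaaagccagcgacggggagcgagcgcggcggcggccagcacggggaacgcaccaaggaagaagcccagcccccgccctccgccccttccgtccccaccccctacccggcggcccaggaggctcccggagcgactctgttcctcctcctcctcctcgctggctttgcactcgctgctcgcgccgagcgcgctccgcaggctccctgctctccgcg
Pdgfa, downstream start site, chr5:138994232-138994531, minus strand: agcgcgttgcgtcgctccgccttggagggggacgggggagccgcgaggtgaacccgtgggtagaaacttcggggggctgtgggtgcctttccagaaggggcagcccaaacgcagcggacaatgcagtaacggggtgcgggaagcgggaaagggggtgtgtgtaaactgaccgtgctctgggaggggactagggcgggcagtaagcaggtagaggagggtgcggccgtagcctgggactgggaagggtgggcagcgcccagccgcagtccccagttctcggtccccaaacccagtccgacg
Pdgfc, chr3:81036166-81036465, plus strand: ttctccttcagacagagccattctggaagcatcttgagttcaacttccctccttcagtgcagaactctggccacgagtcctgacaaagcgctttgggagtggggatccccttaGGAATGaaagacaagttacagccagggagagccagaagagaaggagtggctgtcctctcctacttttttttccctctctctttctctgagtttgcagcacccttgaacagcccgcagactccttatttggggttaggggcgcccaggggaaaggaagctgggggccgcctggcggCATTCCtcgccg
Pdgfra, chr5:75152001-75152300, plus strand: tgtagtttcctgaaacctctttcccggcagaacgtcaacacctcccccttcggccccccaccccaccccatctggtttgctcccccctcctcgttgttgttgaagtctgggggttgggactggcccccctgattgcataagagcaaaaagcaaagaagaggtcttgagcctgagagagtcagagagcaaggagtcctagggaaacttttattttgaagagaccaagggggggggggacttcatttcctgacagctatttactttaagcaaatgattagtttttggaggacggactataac
Pdgfc held the letters 2 times, once on each strand, and was the 1 window of the 7 with a match. Over all 32851 windows of this length, 14.7% held a match on either strand. No window was used for Pdgfb, Pdgfrb or Angpt1, and those of Cspg4, Rgs5 and Mcam are not shown. For the 9 genes, any window on 1 chromosome, that of Pdgfrb, was left out, a limit not applied to the windows of the 14.7%.

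The question put to the genes was whether their level differed between dCKO and control tissue. Of the 9, Pdgfa and Pdgfb rose and no member passed the test as lower. In the background, 6.42% of the 12710 tested genes were called, 5.0% as higher (636 genes) and 1.42% as lower (180 genes), with edgeR's quasi-likelihood test and Benjamini-Hochberg adjustment over all genes at 0.05. Scaled by library size alone, the background was 531 higher and 472 lower. With edgeR 0 members were called lower, and 2 lower members, Pdgfra and Angpt1, had an unadjusted p below 0.05, as 9.65% of all tested genes did in that direction. DESeq2 called 1 (Pdgfra) and limma-voom 0. The 2 groups did not overlap in 5 members, higher in dCKO for Pdgfa, Pdgfb and Mcam and lower for Pdgfra and Angpt1. Of all tested genes, 37.6% had groups that did not overlap, 19.0% with dCKO higher and 18.6% with dCKO lower. The median log2 fold change was 0.14 over the 9 genes and −6e-04 over all tested genes.

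**Figure D1:**
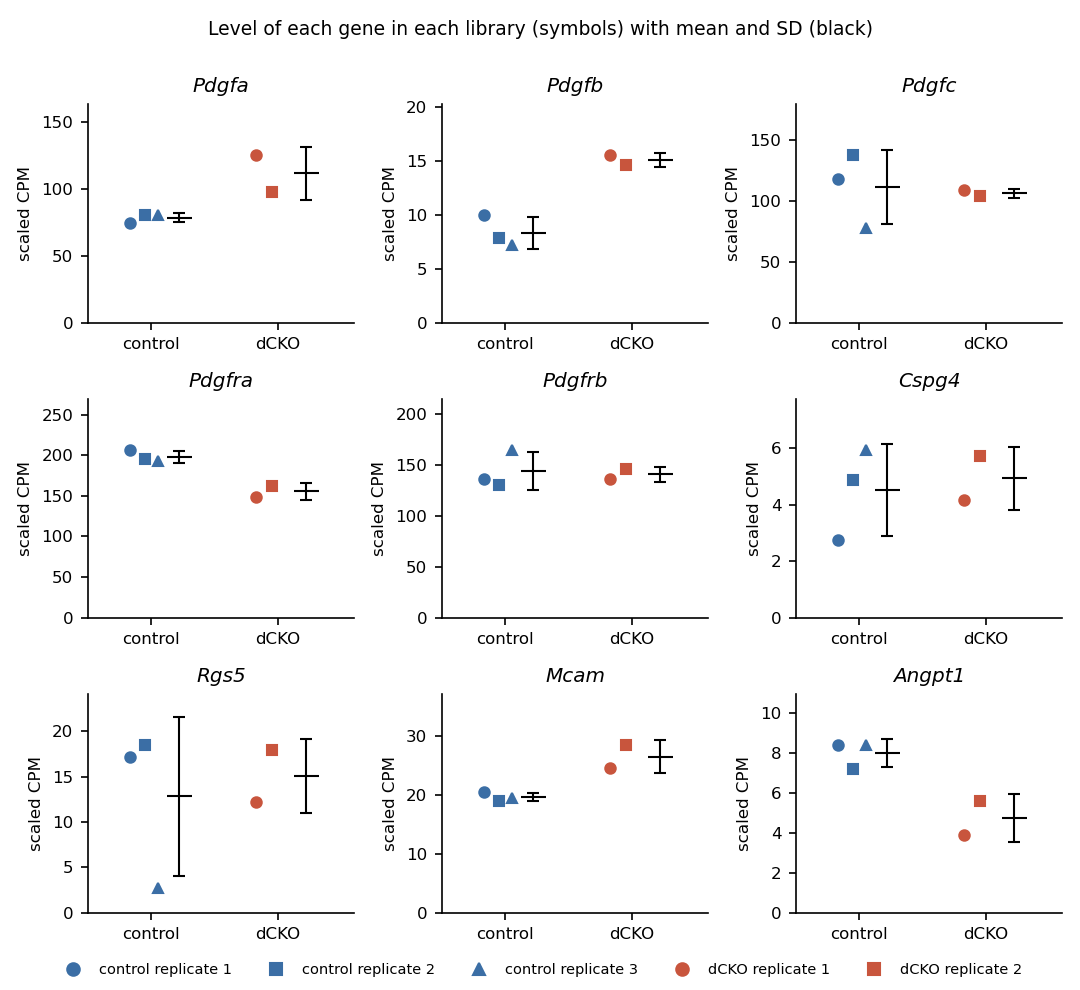
Scaled CPM (vertical axis, from 0) of each of the 9 genes in the 3 control (blue) and 2 dCKO (red) libraries, with the mean and SD of each group in black. Pdgfa, Pdgfb and Mcam were higher in both dCKO libraries than in any control, Pdgfra and Angpt1 were lower in both, and Rgs5 in control replicate 3 lay at 2.75 CPM.

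Of the ligand genes, Pdgfa and Pdgfb were higher in dCKO tissue and Pdgfc was not. Pdgfa, the gene of the PDGFRα ligand made by epithelia, measured 74.4, 80.4 and 80.7 CPM in control replicates 1, 2 and 3 and 125.5 and 97.4 CPM in dCKO replicates 1 and 2, from 529 to 1360 counts. The controls lay close together, whereas the 2 dCKO libraries differed from each other by more than the controls did. Means were 78.5 ± 3.55 CPM (SD, n = 3) and 111.5 ± 19.9 CPM (SD, n = 2), a 1.42-fold rise (log2 fold change 0.51, SE 0.13, adjusted p by edgeR 0.0202). The call rested on single libraries: without dCKO replicate 1 the log2 fold change was 0.32 (edgeR adjusted p = 0.376), and without control replicate 1 it was 0.47 (edgeR adjusted p = 0.102). In the authors' deposited table the fold change of Pdgfa was 1.45 with an adjusted p of 0.105, short of 0.05.

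Pdgfb, the gene of the PDGFRβ ligand of endothelium and platelets, had the largest rise of the 9. It measured 9.97, 7.83 and 7.17 CPM in the controls and 15.6 and 14.7 CPM in the dCKO libraries, from 47 to 192 counts. Both dCKO values lay above the highest control, and their counting intervals (95% exact Poisson, 13.3 to 18.1 and 12.7 to 16.9 CPM, counting error only) lay above that of the highest control (7.86 to 12.5 CPM). Means of 8.33 ± 1.46 CPM (SD, n = 3) and 15.1 ± 0.648 CPM (SD, n = 2) gave a 1.81-fold rise (log2 fold change 0.86, SE 0.22, adjusted p by edgeR 0.0255). The authors' deposited table gave a fold change of 1.83 with an adjusted p of 0.0445. The call was lost without control replicate 2 or dCKO replicate 1 or 2 (log2 fold changes of 0.81, 0.82 and 0.90, edgeR adjusted p = 0.0697, 0.2 and 0.107). It was also lost once the dependence of counts on transcript GC content was corrected in each library (0.60, SE 0.23, adjusted p by edgeR 0.17), where Pdgfa kept its call at 0.42 (SE 0.11, adjusted p by edgeR 0.0355). The longest transcript of Pdgfb has a GC content of 60%, against 52.1% for Pdgfa and a median of 49.9% over the tested genes.

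Pdgfc, the gene of the other PDGFRα ligand here, measured 118, 138 and 78.1 CPM in the controls and 109 and 104 CPM in the dCKO libraries. Both dCKO values fell inside the spread of the controls, in which replicate 3 was the lowest. Its log2 fold change was −0.07, with a 95% interval of −0.42 to 0.29 (edgeR adjusted p = 0.858). Without control replicate 3 it was −0.28 (SE 0.12, edgeR adjusted p = 0.13). In the authors' deposited table its fold change was 0.971 with an adjusted p of 1.

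Markers of blood, epithelium and endothelium also moved in the same libraries. All 10 tested megakaryocyte and platelet genes rose, with a summed level of 14.0 to 24.4 CPM in the controls and 141 to 235 CPM in the dCKO libraries. All 9 tested red cell genes rose as well, from 3405 to 4415 CPM summed in the controls to 55540 and 79730 CPM. Of 11 epithelial genes, Krt8, Krt18 and Krt19 rose, though Krt8 and Krt18 lost their calls with the counts corrected for GC content (adjusted p by edgeR 0.107 and 0.279), Krt8 also without dCKO replicate 2 (0.067), and Krt18 also without control replicate 1 or 3 or dCKO replicate 1 or 2 (0.0558 to 0.364). All 11 epithelial genes had a log2 fold change above 0. An unadjusted p below 0.05 by edgeR was reached by 9 of them, against 11.9% of all tested genes as higher. For 9 of the 11, each dCKO library exceeded every control, against 19.0% of all tested genes. The summed level of the epithelial list was 378 to 469 CPM in the controls and 555 to 587 CPM in the dCKO libraries. Of 13 endothelial genes, Cldn5 and Egfl7 rose. Both calls were lost with the GC correction (adjusted p by edgeR 0.265 and 0.187) and with scaling by library size alone (0.0641 and 0.0648). They were also lost without control replicate 1 (0.0766 and 0.115) or control replicate 2 (0.17 and 0.18). Without dCKO replicate 1 the log2 fold changes were 0.44 and 0.62, against 0.64 and 0.57 as reported. The summed level of the endothelial list was 360 to 385 CPM in the controls against 393 and 450 CPM in the dCKO libraries. Of 6 myeloid genes Laptm5 rose, of 6 neural and glial genes Sox10 rose, and of 8 mesoderm and muscle genes edgeR called 0. Of those 8, 3 had an unadjusted p below 0.05, against 21.5% of all tested genes, and limma-voom called 1 (Lhx2). Without control replicate 3 edgeR called 4 of them (Lhx2, Msc, Tbx1 and Tcf21), and 1637 of all 12890 genes tested in that setting. The part of these cells in the levels of Pdgfa and Pdgfb was not tested.

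**Figure D2:**
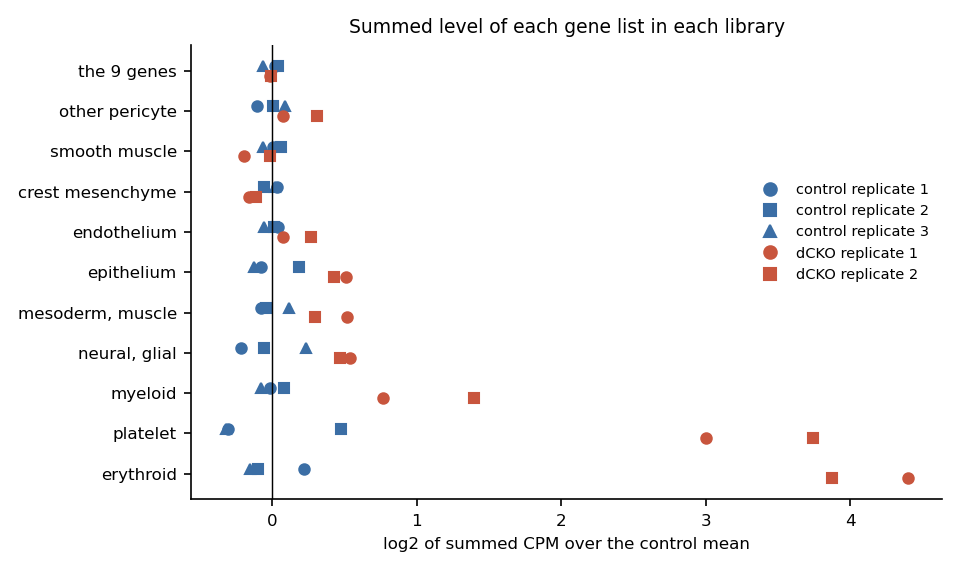
Summed CPM of the tested genes of each list in each library, as log2 of its ratio to the control mean (horizontal axis), for the 9 genes and 10 lists of cell type genes. The platelet and erythroid lists lay far to the right in both dCKO libraries, and the summed level of the 9 genes lay within the spread of the controls.

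The receptor genes did not pass the test. Pdgfra, the receptor gene of crest mesenchyme, measured 207, 195 and 193 CPM in the controls and 148 and 163 CPM in the dCKO libraries, from 1264 to 2125 counts. The groups did not overlap, and the gap between them was wider than the spread within either. The means were 198 ± 7.45 CPM (SD, n = 3) and 155 ± 10.2 CPM (SD, n = 2), with a log2 fold change of −0.35, a 95% interval of −0.60 to −0.10 and an edgeR adjusted p of 0.0882. Pdgfra was called lower by DESeq2 (adjusted p = 0.0428), with scaling by library size alone (edgeR adjusted p = 0.038) and without control replicate 3 (log2 fold change −0.38, edgeR adjusted p = 0.0364). Its adjusted p ranged from 0.0275 to 0.474 over the 16 alternatives, at log2 fold changes of −0.43 to −0.28. The authors' deposited table had a fold change of 0.798 with an adjusted p of 0.344. In the same libraries 4 of 13 crest mesenchyme markers fell (Foxc1, Dlx5, Dlx6 and Prrx1) and 1 rose (Alx4), with a summed level of 2197 to 2330 CPM in the controls and 2041 and 2113 CPM in the dCKO libraries. The calls of Prrx1 and Alx4 ended with the GC correction (adjusted p by edgeR 0.27 and 0.0731), that of Prrx1 also without control replicate 1 or dCKO replicate 1, and those of Alx4 and Dlx5 without any 1 of control replicates 1 and 2 and dCKO replicates 1 and 2. Whether Pdgfra moved with the amount of crest mesenchyme was not tested.

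Pdgfrb, the receptor gene of mural cells, which arch mesenchyme also expresses, measured 136, 130 and 165 CPM in the controls and 136 and 146 CPM in the dCKO libraries. Both dCKO values lay within the range of the controls, of which replicate 3 was the highest. Its log2 fold change was −0.03 with a 95% interval of −0.30 to 0.24 (edgeR adjusted p = 0.922).

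**Figure D3:**
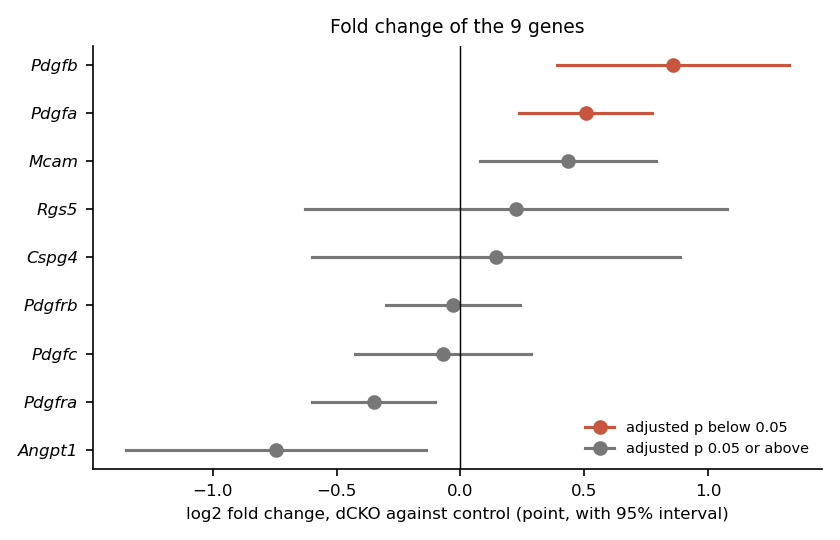
Log2 fold change of dCKO against control (horizontal axis) for the 9 genes, each point with its 95% interval from edgeR's quasi-likelihood test, red where the adjusted p is below 0.05. The intervals of Pdgfa, Pdgfb, Mcam, Pdgfra and Angpt1 lay to 1 side of 0, and those of Pdgfb and Pdgfa, at 0.86 and 0.51, belong to the genes that passed after adjustment.

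Ratios of raw counts within a library need no scaling between libraries, but no correction for GC content was made in them. They were chosen after the values were seen and are given with no test, since 3 libraries against 2 allow a one-sided p of no less than 0.1 in an exact permutation test. The Pdgfa to Pdgfra ratio was 0.36, 0.412 and 0.419 in the controls and 0.847 and 0.60 in the dCKO libraries. The ligand was thus higher relative to its receptor in both dCKO libraries. The Pdgfb to Pdgfrb ratio was 0.073, 0.06 and 0.044 in the controls and 0.115 and 0.10 in the dCKO libraries, which again did not overlap. Between the receptors, the Pdgfra to Pdgfrb ratio was 1.516, 1.494 and 1.17 in the controls and 1.093 and 1.112 in the dCKO libraries. Control replicate 3 lay near the dCKO libraries in this ratio, although the groups did not overlap. Transcript GC content was 48.1% for Pdgfra and 54.9% for Pdgfrb. With the GC correction their log2 fold changes were −0.29 and −0.19, closer together than the −0.35 and −0.03 as reported. The Pdgfa to Pdgfc ratio was 0.629, 0.581 and 1.033 in the controls and 1.153 and 0.937 in the dCKO libraries, where control replicate 3 fell between the dCKO values.

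**Figure D4:**
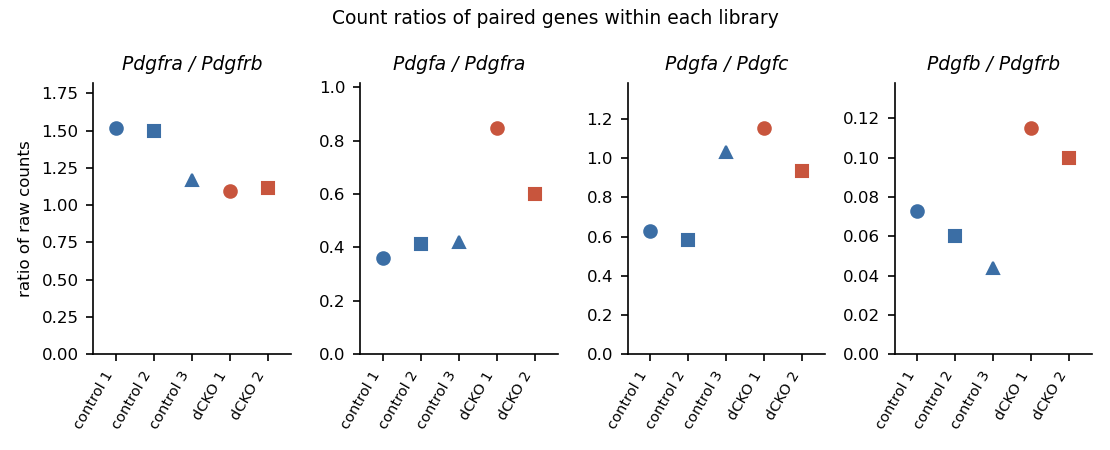
Ratio of raw counts of 2 genes (vertical axis, from 0) in each of the 5 libraries, with control in blue and dCKO in red. The Pdgfa to Pdgfra ratio was at most 0.419 in a control and at least 0.60 in a dCKO library, whereas control replicate 3 lay between the dCKO libraries for Pdgfa to Pdgfc.

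Of the mural cell genes among the 9, Mcam, Cspg4, Rgs5 and Angpt1 did not pass the test. Mcam, an adhesion molecule of pericytes that endothelium also carries, measured 20.5, 19.1 and 19.5 CPM in the controls and 24.6 and 28.6 CPM in the dCKO libraries. The controls lay close together, and both dCKO libraries lay above them. The means of 19.7 ± 0.723 CPM (SD, n = 3) and 26.6 ± 2.86 CPM (SD, n = 2) gave a log2 fold change of 0.43, with a 95% interval of 0.08 to 0.79 and an edgeR adjusted p of 0.139. It did not pass under any of 16 alternatives (adjusted p from 0.107 to 0.496).

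Cspg4, the gene of the NG2 proteoglycan of pericyte surfaces, had the lowest level of the 9 per kilobase of transcript in both groups. A library held 21 to 75 counts of Cspg4. The gene measured 2.76, 4.86 and 5.95 CPM in the controls and 4.15 and 5.74 CPM in the dCKO libraries. The dCKO values fell inside the range of the controls. Its log2 fold change of 0.14 had a 95% interval of −0.60 to 0.89 (edgeR adjusted p = 0.86), so changes of either sign within that interval were not excluded.

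Rgs5, the gene of a regulator of G protein signalling known from pericytes, measured 17.2 and 18.5 CPM in control replicates 1 and 2, 2.75 CPM in control replicate 3, and 12.2 and 18.0 CPM in the dCKO libraries. In counts, control replicate 3 had 18 against 131 and 137 in the other controls. Its 95% exact Poisson interval of 1.63 to 4.34 CPM lay below that of every other library, the next lowest being 10.2 to 14.4 CPM in dCKO replicate 1. The log2 fold change was 0.22 with a 95% interval of −0.63 to 1.08 (edgeR adjusted p = 0.80). Without control replicate 3 its direction turned, at −0.24 (SE 0.22, edgeR adjusted p = 0.486), where the groups still overlapped. Among the libraries with Y-linked transcripts the log2 ratio of dCKO to control CPM of Rgs5 was −0.55, and among those without it was 2.71, each with 1 dCKO library. For Pdgfa these ratios were 0.70 and 0.27, for Pdgfb 0.81 and 1.03, and for Pdgfra −0.44 and −0.25.

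Angpt1, the TIE2 ligand gene of perivascular cells, had the lowest fold change of the 9. It measured 8.40, 7.16 and 8.39 CPM in the controls and 3.88 and 5.58 CPM in the dCKO libraries, from 42 to 73 counts. Both dCKO values lay below the lowest control, though the counting interval of dCKO replicate 2 (95% exact Poisson, 4.38 to 7.02 CPM) overlapped those of all 3 controls. Means were 7.98 ± 0.713 CPM (SD, n = 3) and 4.73 ± 1.21 CPM (SD, n = 2), and the log2 fold change had a 95% interval of −1.35 to −0.14 (edgeR adjusted p = 0.138). Over the 16 alternatives it ran from −1.03 to −0.38, and none called it.

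**Figure D5:**
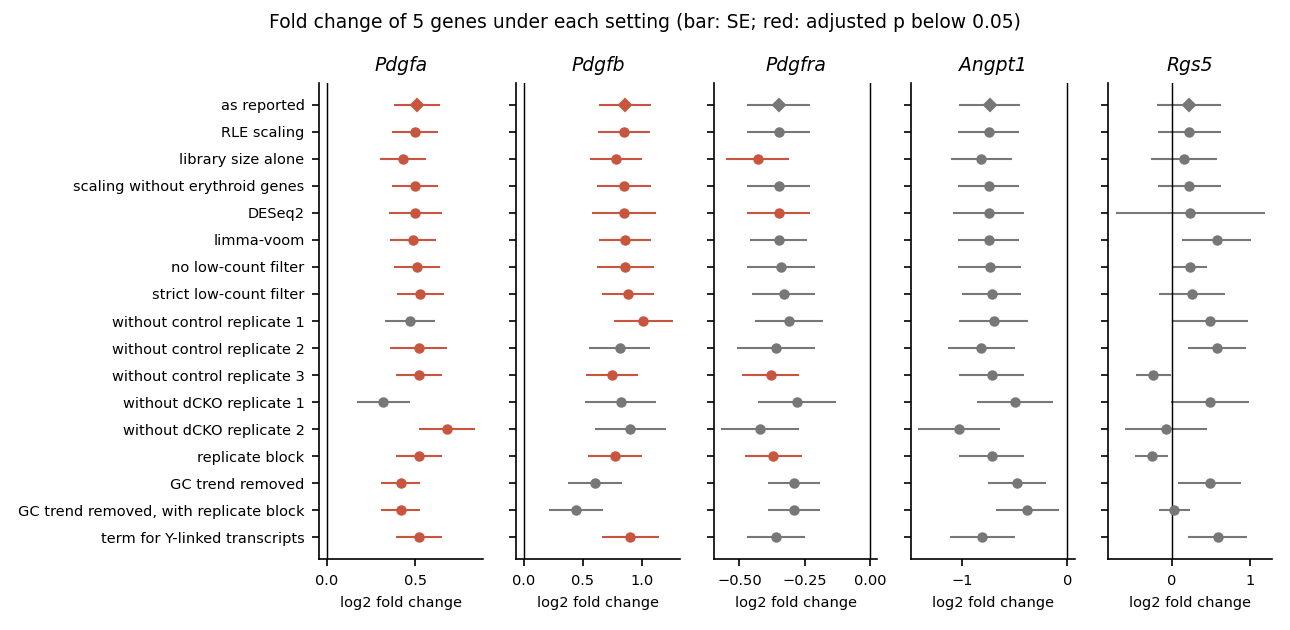
Log2 fold change with its SE (horizontal axis) of Pdgfa, Pdgfb, Pdgfra, Angpt1 and Rgs5 as reported (diamond) and under each of 16 alternative settings (rows), red where the adjusted p is below 0.05. The points of Pdgfa and Pdgfb stayed above 0 and those of Pdgfra and Angpt1 below 0 in all settings shown, while those of Rgs5 fell on both sides.

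Levels of different genes were compared per kilobase of the longest GENCODE M21 transcript. In the controls Pdgfa had 38.1 ± 1.72 CPM per kilobase, Pdgfc 31.7 ± 8.72, Pdgfra 29.0 ± 1.09 and Pdgfrb 26.5 ± 3.37 (SD, n = 3). The values of Pdgfc, 22.2 to 39.3 CPM per kilobase, spanned those of Pdgfa and both receptors, and Pdgfra (28.2 to 30.2) and Pdgfrb (24.1 to 30.4) overlapped as well. The other 5 genes lay far below these: Mcam at 6.58 ± 0.242, Rgs5 at 3.13 ± 2.13, Pdgfb at 2.83 ± 0.496, Angpt1 at 1.87 ± 0.167 and Cspg4 at 0.557 ± 0.199 CPM per kilobase. Rgs5, which varied most, did not differ from Pdgfb or Angpt1 beyond its spread. In the dCKO libraries Pdgfa remained first at 54.1 ± 9.66 CPM per kilobase (SD, n = 2), followed by Pdgfc at 30.2 ± 0.986, Pdgfrb at 26.0 ± 1.38 and Pdgfra at 22.7 ± 1.49. The receptors, which overlapped in the controls, were in the other order there, Pdgfra at 21.7 and 23.8 and Pdgfrb at 25 and 26.9 CPM per kilobase. These levels were not corrected for GC content, in which the receptors differ.

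Few other genes of PDGF signalling passed the test. Of 7 extracellular components, among them the ligand Pdgfd and the proteases and co-receptors Plat, Plau, Furin, Nrp1 and Lrp1, 0 were called by any of edgeR, DESeq2 and limma-voom, and 0 had an unadjusted p below 0.05. Lrp1, a PDGFRβ-binding endocytic receptor, measured 159 ± 24.0 and 191 ± 50.5 CPM, and Nrp1, a PDGF co-receptor, 28.0 ± 1.70 and 24.0 ± 4.39 CPM (SD, n = 3 and 2). Of 31 tested adaptors, kinases and phosphatases acting just after the receptors, 1 rose and 0 fell with edgeR, at a median log2 fold change of −0.04, and 9 had an unadjusted p below 0.05, against 21.5% of all tested genes. That gene, Pik3cb, which encodes a catalytic subunit of phosphoinositide 3-kinase, measured 14.6, 13.2 and 12.8 CPM in the controls and 25.4 and 22.2 CPM in the dCKO libraries (log2 fold change 0.81, SE 0.18, adjusted p by edgeR 0.00939). With dCKO replicate 1 left out it did not pass (adjusted p by edgeR 0.151). DESeq2 called 1 of the 31 lower, Crk, and limma-voom 0. With control replicate 3 left out, 6 of the 31 were called, 3 in each direction. In that setting 1637 of all 12890 tested genes were called, against 816 of 12710 with all 5 libraries.

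Of 16 further genes known from pericytes, 9 could be tested and the others reached at most 4.21 CPM in any library. Among those not tested, Higd1b had 0 counts in all 5 libraries, which allows up to 0.0659 CPM over them (3 counts). Kcnj8 had 0 in the controls (up to 0.139 CPM) and 1 and 2 counts in the dCKO libraries. Foxs1 and Zic1 also had 0 counts in some libraries. The 9 tested genes of the list had counts in every library. Abcc9 was at 7.76 ± 1.44 and 8.34 ± 4.10 CPM in control and dCKO tissue, Anpep at 17.7 ± 3.62 and 16.6 ± 0.306 CPM, and Cd248 at 35.0 ± 2.22 and 36.1 ± 6.69 CPM (SD, n = 3 and 2). With edgeR 0 of the 9 tested pericyte genes were called, as with DESeq2 and limma-voom. Of the 9, 2 had an unadjusted p below 0.05, a share to be read against the same 21.5%. These were Heyl, a Notch effector, at 4.35 ± 2.31 and 10.6 ± 4.89 CPM (edgeR adjusted p = 0.0526), and Cox4i2 at 6.05 ± 1.93 and 9.61 ± 2.63 CPM (SD, n = 3 and 2). Heyl was called under several alternatives, such as leaving out control replicate 3 (adjusted p by edgeR 0.0385). It was not called without control replicate 1 or with the GC correction (adjusted p by edgeR 0.221 and 0.114). Without dCKO replicate 1 its log2 fold change fell from 1.28 to 0.73. Notch3 (171 ± 26.0 and 201 ± 24.7 CPM) and Des (31.2 ± 11.5 and 33.7 ± 6.05 CPM), also of the pericyte list, did not pass. Des was lowest in control replicate 3, at 18.2 CPM against 40 and 35.4 CPM in control replicates 1 and 2. Of the TIE2 axis, edgeR, DESeq2 and limma-voom called 0 of 4, and 0 had an unadjusted p below 0.05. Angpt2, the other angiopoietin, measured 1.25 ± 0.089 and 2.45 ± 0.326 CPM, and the receptor gene Tie1 27.4 ± 1.34 and 33.4 ± 4.27 CPM. By contrast, of 9 smooth muscle contractile genes, Acta2, Tagln and Myl9 rose and Cald1 fell (a call that ended with control replicate 1, control replicate 2 or dCKO replicate 1 left out), in the same libraries in which all 10 platelet genes rose. Acta2 was at 2.84 to 3.28 CPM in the controls and 11.5 and 18.5 CPM in the dCKO libraries. No test compared the pericyte genes with the smooth muscle genes.

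For the receptors and the 2 genes that rose, the genes with the most similar pattern were those with the smallest root mean square difference in centred log2 CPM over the 5 libraries, among genes averaging at least 5 CPM. They were Pdia4, Btbd10 and Snx18 for Pdgfra (0.0209, 0.0215 and 0.0248) and Arl1, Clasrp and Heatr2 for Pdgfrb (0.0199, 0.0214 and 0.0226). For Pdgfa they were Supt4a, 2310009B15Rik and Ptdss2 (0.0324, 0.0375 and 0.0397), and for Pdgfb they were Sgk3, Lmo7 and Ifi30 (0.0508, 0.0998 and 0.102). None of these 12 is a gene of the PDGF or mural lists. Those lists make up a small part of the 10744 candidates, so no conclusion is drawn from their absence.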

How the data were processed

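The authors deposited raw read counts by gene symbol for all 5 libraries. The count columns headed wild type were matched to the control titles on the replicate number. The submitters' processing notes name mm9, HTSeq 0.5.4p3 and DESeq 1.16.0. In the sources used here the aligner, the annotation and any use of strand are not given. GENCODE M21 places exons of other genes on the opposite strand over 5 of the 9 genes (Pdgfa, Pdgfc, Pdgfra, Mcam and Angpt1), whose reads could then not be told apart. The authors' deposited table holds a signal (mean normalized counts), a fold change (ratio), its log2 value, and p-values with adjustment. Its row for reads in no gene took 41.9% of the mean normalized counts, and the count table has no such row. Libraries within a group varied beyond counting error (chi-square divided by genes, 4.43 to 14.1), so each was kept as its own replicate.

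The tests ran in edgeR 4.0.16 under R 4.3.3, after filterByExpr (minimum count 10, minimum total 15), TMM scaling, and the two-sided quasi-likelihood F test of dCKO against control. Benjamini-Hochberg adjustment ran over the 12710 genes tested, with a threshold of 0.05. An SE was derived from the log2 fold change and its F statistic. The 27 rows whose symbols a spreadsheet turned into dates were kept and are not named. The code was tested on simulated data. Named were the 9 genes, Yap1, Wwtr1, the called or lowest-p genes of each list (red cell and platelet lists as sums only) and the most similar genes. Notch3, Des, Abcc9, Anpep, Cd248, the genes called by other settings alone, the ratios and the genes low in control replicate 3 were chosen after their values were seen. The members and lists were chosen with earlier results of these data known. Alternatives used DESeq2 1.42.0, limma-voom (limma 3.58.1), other scalings and filters, each library left out, the replicate number as a block, and a GC offset. A term for Y-linked transcripts was chosen after seeing the data. Transcript lengths and GC content (99.3% of tested genes) come from GRCm38, so no mm9 coordinates are given.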

Additional observations from a re-analysis of the deposited data

How the results depend on the processing

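Pdgfa and Pdgfb kept their direction under all 16 alternatives, as did Pdgfra, Angpt1 and Mcam. The number of members called higher, 2 as reported, was 1 with the GC trend removed, also together with the replicate block, and 0 to 2 with single libraries left out. The number called lower, 0 as reported, was 1 (Pdgfra) with library size alone, DESeq2 or the replicate block, and 0 to 1 with single libraries left out. Groups did not overlap in 5 members, or 6 without control replicate 3. That setting sets 2 libraries against 2, where groups separate more easily, and its share over all genes was not taken. Over all genes, 816 as reported became 442 to 1637 with single libraries left out (403 to 950 higher, 39 to 687 lower), and 2121 with the replicate block (1200 higher, 921 lower). Genes called lower, 180 as reported, were 472 with library size alone, 305 with no low-count filter and 377 with the GC trend removed and the replicate block. The largest count with a library left out, 1637, was without control replicate 3, whose number no dCKO library shares, so that it adds nothing to the block fit either. Nothing in the labels says that a number marks a shared litter or day. Correlations of deviations between same-numbered libraries were 0.084 and −0.004. The 2 dCKO libraries deviate from their own mean as mirror images, so these values cannot decide whether the numbers mark pairs. The block is therefore not read as a pairing of the samples.

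Members near 0 changed sign. With single libraries left out, Pdgfc ranged from −0.28 to 0.11, Pdgfrb from −0.10 to 0.07, Cspg4 from −0.11 to 0.38 and Rgs5 from −0.24 to 0.57. Under the replicate block Pdgfrb was at 0.08 and Rgs5 at −0.26, Cspg4 was at −0.08 with the GC trend removed, and Pdgfc at 0.04 with a term for Y-linked transcripts. Of other genes named, Arl1 ranged from −0.12 to 0.06, Clasrp from −0.08 to 0.08, Heatr2 from −0.11 to 0.06 and Lrp1 from −0.03 to 0.52 with single libraries left out. The block put Arl1, Clasrp and Heatr2 at 0.06, 0.09 and 0.06. Lrp1, not called as reported, was called under the block (0.36, adjusted p by edgeR 0.0398). Arl1 was at 0.14 with the GC trend removed, and with the block as well Arl1, Btbd10 and Nrp1 were at 0.31, 0.09 and 0.01. Clasrp was at 0.01 with the strict filter, which left Cspg4 untested. Where the construction of an alternative does not give the cause, it was not tested. A lone dCKO library was taken to vary like the controls. Depth limits Cspg4 and Angpt1, with 21 to 75 counts a library.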

Other observations

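Rgs5 was 1 of 9 genes that stood at least 4-fold lower in control replicate 3 than in both other controls, of 10579 genes averaging at least 5 CPM in the controls. The same count was 1 for control replicate 1 and 1 for control replicate 2. Of the 9, Eif2s3y, Kdm5d, Ddx3y and Uty are Y-linked, and the others, named after their values were seen, were Hand1, Bmp5, Rgs5, Syt6 and Alx1. Hand1, a transcription factor gene of the distal lower arch, measured 87.8 and 91.4 CPM in control replicates 1 and 2, 5.49 CPM in control replicate 3, and 70.0 and 83.9 CPM in the dCKO libraries. Bmp5, the gene of a bone morphogenetic protein, measured 11.0, 11.8 and 1.68 CPM in the controls and 5.08 and 5.58 CPM in the dCKO libraries. Syt6, a synaptotagmin gene, was at 15.4, 15 and 2.44 CPM in the controls, and Alx1, a homeobox gene of the facial mesenchyme, at 8.40, 8.64 and 1.68 CPM. dCKO replicate 2, which like control replicate 3 had almost no Y-linked transcripts, had Hand1 and Rgs5 at levels near those of control replicates 1 and 2. Xist measured 343 CPM in control replicate 3 and 414 CPM in dCKO replicate 2, against 0, 0 and 1.29 CPM in control replicates 1 and 2 and dCKO replicate 1. Why these genes were low in control replicate 3 was not tested.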
